A study of Mus musculus with 20 samples.

Results

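A set of 10 genes of cell cycle arrest and the p53 response, called member genes below, was followed through the kidneys of healthy mice, of Alport mice and of Alport mice under treatment. They were chosen by symbol and are the CDK inhibitors Cdkn1a, Cdkn1b, Cdkn2a and Cdkn2b, the p53 feedback genes Mdm2 and Ccng1, the secreted stress factor Gdf15, and Trp53inp1, Bax and Sesn2. Each symbol matched 1 of the 47069 Ensembl genes of the count table, so the member genes are 10 of 47069, and all 10 passed the filter on low counts. Cdkn2a passed it only through the Veh mice, since its counts did not exceed 13 in any mouse of the other groups. In the gene annotation of GRCm38 (GENCODE M21) Cdkn2a and Cdkn2b are neighbours on chromosome 4, at chr4:89274471-89294653 and chr4:89306299-89311039, both on the minus strand. An antisense gene, AC167363.2, overlaps Cdkn1a (chr17:29090976-29100727, plus strand), and genes of the same strand, Gm45808 and Gm12981, overlap Bax and Sesn2, so that reads of these pairs may be mixed.

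The transcription factor p53 accumulates after DNA damage and other stress and switches on genes that halt the cell cycle, repair damage or start apoptosis, while Mdm2, one of its own targets, marks p53 for degradation. Cyclin-dependent kinases (CDKs) drive the cell cycle, and the proteins p21 (Cdkn1a), p27 (Cdkn1b), p16Ink4a (Cdkn2a) and p15Ink4b (Cdkn2b) bind and inhibit them. In injured kidneys p21 and p16Ink4a are widely used as marks of arrested or senescent tubule cells, and Gdf15 as a mark of cell stress.

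Kidney RNA was sequenced from 20 male mice of a 129SJ x C57Bl/6J background at 15 weeks of age, in which F1-Col4a3-/- mice lack the collagen IV α3 chain and serve as a model of Alport nephropathy. The groups were 5 untreated wild-type mice (WT), 6 Col4a3-/- mice injected with PBS (Veh), 6 Col4a3-/- mice given lademirsen, an oligonucleotide directed against miR-21, at 50 mg/kg (anti-miR-21), and 3 Col4a3-/- mice given the ACE inhibitor ramipril at 11 mg/L in the water (ACEi). By the paper's methods the ACEi mice were injected with PBS as well. Injections were weekly and all treatments began at 5 weeks of age, whereas the WT mice received no injection, so that genotype and PBS injection cannot be told apart between Veh and WT. The deposited library table gives the ramipril dose as 4 mg/kg instead.

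Values are CPM, the usual depth-scaled counts, computed from the deposited estimated counts with edgeR's TMM factors, differences are log2 fold changes with their standard errors (SE), and a gene was called at an adjusted p under 0.05 in edgeR's quasi-likelihood test over 17622 genes. Counts summed to between 28474301 and 29479629 per mouse. The targeted gene was read first, and Col4a3 lay between 194 and 238 CPM in the WT mice and between 27.9 and 74.9 CPM in the 15 Col4a3-/- mice, and gene-level counts do not show where in the gene the remaining reads lie. The kidney markers Umod, Slc12a1, Lrp2 and Nphs1 were present, although the labels describe the RNA as coming from homogenized adipose tissue. Summed markers of fat cells (Adipoq, Plin1, Cidec, Lep and Adig) reached 80.1 to 116 CPM in Veh mice A1, A4 and A9, 94.6 CPM in anti-miR-21 mouse A12 and 20 CPM in A15, against at most 11.0 CPM elsewhere. The libraries came from 2 flow cells, A with 13 mice and B with 7, and flow cell B held 2 WT, 2 Veh, 1 anti-miR-21 and 2 ACEi mice.

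The promoters of 4 member genes carry, within 250 bases before an annotated start, at least 1 match to the consensus half-site bound by p53, and the stretches around these matches are shown because the genes behind them moved differently in the same kidneys. The half-sites are in capitals, and the sequences are RefSeq's for GRCm38.p6, read 5′ to 3′ on the strand of each gene, at chr17:29090881-29090962 (+) for Cdkn1a, chr7:45467065-45467124 (-) for Bax, chr10:117710910-117710969 (-) for Mdm2 and chr11:40755437-40755496 (-) for Ccng1.
Cdkn1a: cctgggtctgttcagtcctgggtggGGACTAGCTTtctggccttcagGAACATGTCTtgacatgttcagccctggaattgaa
Bax: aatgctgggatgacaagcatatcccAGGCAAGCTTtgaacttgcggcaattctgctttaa
Mdm2: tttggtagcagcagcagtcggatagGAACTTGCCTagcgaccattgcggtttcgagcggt
Ccng1: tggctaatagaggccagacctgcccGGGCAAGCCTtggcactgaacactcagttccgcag

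In Cdkn1a both matches lie before the more upstream of 2 annotated starts, beginning 73 and 51 bases before it, and the window of the other start holds none. Those of Mdm2 and Ccng1 begin 186 and 185 bases before the start, and that of Bax lies further upstream. Windows were available for 9 of the 10 member genes, all except Trp53inp1. No match was found in the windows of Cdkn2a, Cdkn2b, Cdkn1b, Gdf15 or Sesn2, and 7.13% of the 32851 promoter windows of the same length in the table hold at least 1. A match of letters is a description and does not show that p53 binds there.

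One of the treatments targets a microRNA, and the mature miR-21a-5p (chr11:86584120-86584141, minus strand, GRCm38.p6) is shown with its seed, bases 2 to 8, in capitals, above the only stretch of a member gene's annotated 3′ UTR that pairs with the whole seed. That stretch is in Cdkn1b (chr6:134923170-134923196, plus strand, GRCm38) and has the 7 paired bases in capitals.
miR-21a-5p: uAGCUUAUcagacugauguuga
Cdkn1b: ataatagtttATAAGCTccttatgaag

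The same 7 letters occur in the 3′ UTR of 7.33% of the 21685 genes with an annotated one. The other 9 member genes have an annotated 3′ UTR without them.

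In vehicle-treated Alport kidneys the arrest genes Cdkn1a, Cdkn2a and Cdkn2b and the stress factor Gdf15 were at least 4.45 times their WT level in the fit, and Bax and Trp53inp1 rose by less. Ccng1 fell, and Cdkn1b, Mdm2 and Sesn2 were not called. Thus 6 of the 10 member genes were called higher in Veh than in WT, where 39% of all genes tested were called higher, and 1 was called lower, where 34% of all genes were. The 6 include Cdkn2a, which the Veh mice alone carried through the filter on low counts. The same limit applies below to the counts of member genes called lower than in Veh. The median log2 fold change was 0.49 over the member genes and 0.07 over all genes.

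Markers of the cell types of the kidney differed between the same groups. Summed tubule injury markers (Havcr1, Lcn2, Vcam1, Krt20 and Sox9) lay between 23.2 and 35.4 CPM in WT, 836 and 1352 in Veh, 268 and 555 under anti-miR-21 and 536 and 624 under ACEi, and all 5 were called higher in Veh than in WT. The 6 macrophage markers summed to 140 to 154 CPM in WT, 817 to 998 in Veh, 341 to 518 under anti-miR-21 and 450 to 532 under ACEi, and the 5 fibroblast markers to 141 to 340, 2634 to 3370, 581 to 1243 and 1350 to 1490 CPM. The 6 proximal tubule markers moved the opposite way, from 16083 to 20383 CPM in WT to 1801 to 4845 in Veh, with 8295 to 14571 under anti-miR-21 and 8592 to 10878 under ACEi. Neutrophil markers stayed at or under 2.46 CPM in sum in every mouse, and Ly6g was at 0 in 11 of the 20. In whole-kidney RNA, more or fewer cells of a type and more or less RNA per cell cannot be told apart, and the part of these cell types in the member genes' differences was not tested. The p-values set a difference between groups against the spread between mice within groups, which was estimated jointly over all groups.

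**Figure D1:**
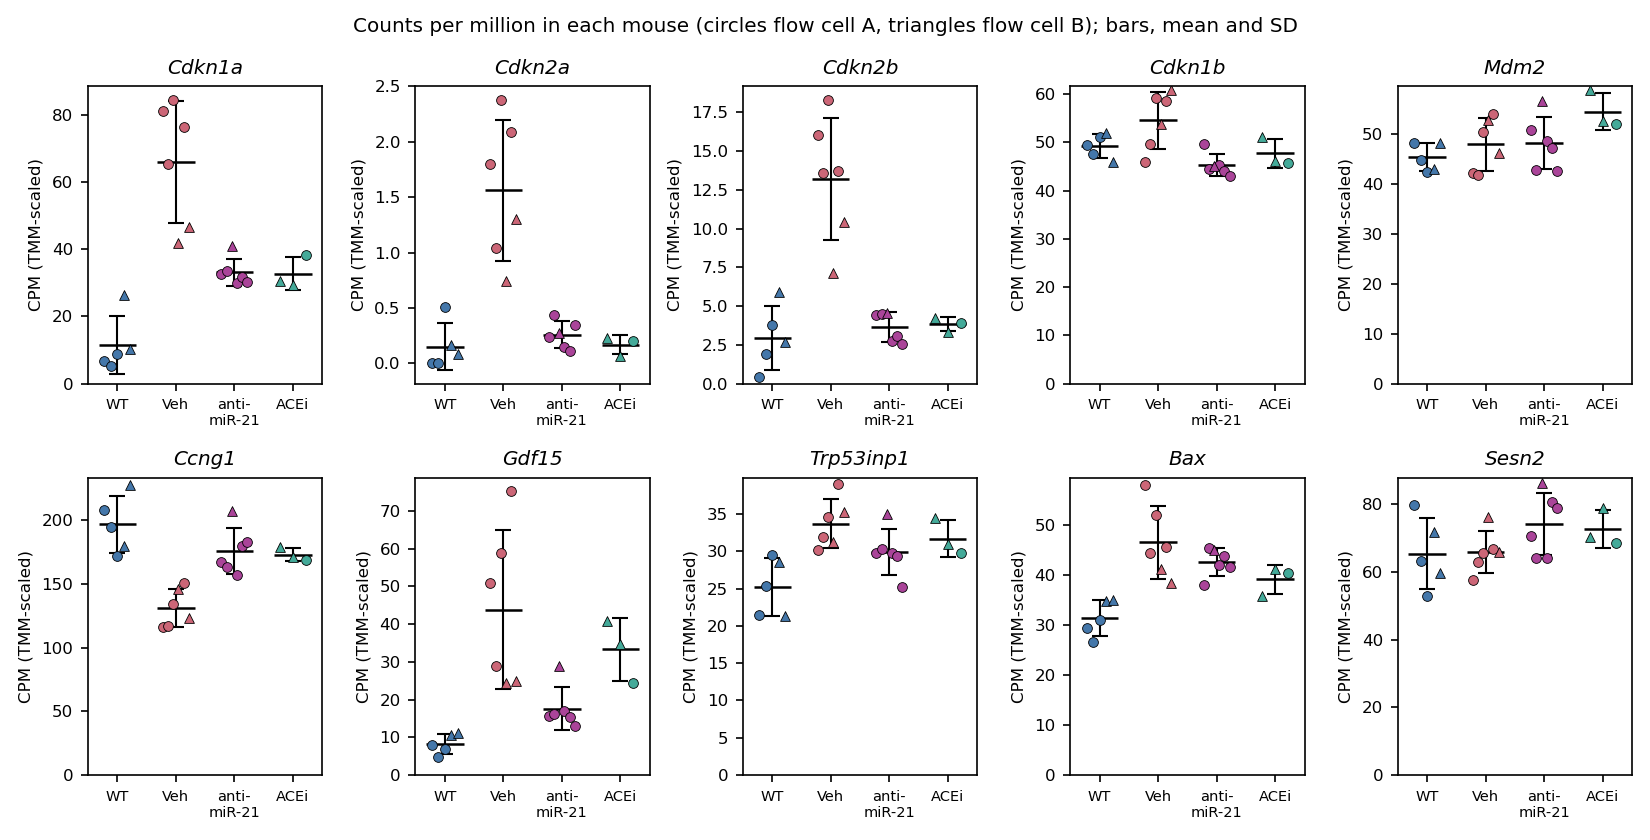
TMM-scaled CPM of each member gene in each of the 20 mice, by group, with circles for flow cell A, triangles for flow cell B, and bars for the group mean and SD. The Veh mice lie between 41.9 and 84.6 CPM for Cdkn1a, above every mouse of the other groups, while the groups overlap for Sesn2.

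Cdkn1a, whose product p21 inhibits cyclin-CDK complexes and is a main effector of p53, was measured at 5.25, 6.64, 8.87, 10.3 and 26.4 CPM in the 5 WT mice. In the 6 Veh mice it ranged from 41.9 to 84.6 CPM with a median of 70.9. In the anti-miR-21 group it ranged from 30.0 to 40.9 CPM with a median of 32.2, and the ACEi mice had 29.3, 30.5 and 38.3 CPM. Every Veh mouse therefore lay above every treated mouse, and every treated mouse above every WT mouse, although the WT mouse A17 came close to the treated mice. The log2 fold change between Veh and WT was 2.52 ± 0.31 (SE), a 5.74-fold rise (adjusted p = 3e-07, edgeR). Within flow cell A alone it was 3.49 and within flow cell B alone 1.27, both called.

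Cdkn2a, which encodes p16Ink4a and, from another start, the Mdm2 inhibitor p19Arf, was close to the limit of detection outside the Veh group, and gene counts do not separate its 2 products. The WT mice had 0, 0, 0.0839, 0.164 and 0.507 CPM, which are 0 to 12 counts each. The Veh mice had 24 to 85 counts, or 0.741 to 2.38 CPM with a median of 1.55. No Veh mouse overlapped a mouse of any other group. Because the Veh mice alone carried Cdkn2a through the filter on low counts, its calls against Veh are descriptions. The log2 fold change between Veh and WT was 3.33 ± 0.60 (adjusted p = 5e-05, edgeR), and at such low counts its size depends on the software's prior count. Without WT mouse A14, which had the 12 counts, it was 4.54. Its sign and call were the same within flow cell A (3.41) and flow cell B (3.0).

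Cdkn2b, the neighbour of Cdkn2a on chromosome 4 and a target of TGF-β signalling, was measured at 0.445, 1.93, 2.68, 3.76 and 5.93 CPM in WT. In Veh it ranged from 7.13 to 18.3 CPM with a median of 13.6, and no Veh mouse overlapped a WT mouse. The rise was 4.45-fold, with a log2 fold change of 2.15 ± 0.37 (adjusted p = 2.7e-05, edgeR). Within flow cell A it was 2.92, and within flow cell B, where A17 was the highest WT and A16 the lowest Veh mouse, it was 1.02 and not called (adjusted p = 0.062).

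Gdf15, a secreted factor of the TGF-β family that many stressed cells release, was measured at 4.72, 6.84, 8.02, 10.5 and 11.2 CPM in WT and at 24.4 to 75.3 CPM, with a median of 39.8, in Veh. The groups did not overlap, and the log2 fold change was 2.41 ± 0.31 (adjusted p = 7.6e-07, edgeR), a 5.32-fold rise. It was 3.05 within flow cell A and 1.19 within flow cell B, called in each.

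The smaller rises were those of Bax and Trp53inp1. Bax, which permeabilizes mitochondria in apoptosis, had 26.5, 29.4, 31.0, 34.7 and 34.9 CPM in WT and 38.3 to 57.9 CPM (median 45) in Veh. Trp53inp1, a nuclear protein induced by p53 that takes part in cell death and autophagy, had 21.3, 21.4, 25.4, 28.5 and 29.5 CPM in WT and 30.2 to 39.0 CPM (median 33.3) in Veh. Neither gene overlapped between the groups, although for Trp53inp1 the highest WT mouse was within 1 CPM of the lowest Veh mouse. The log2 fold changes were 0.57 ± 0.10 for Bax (adjusted p = 2e-05, edgeR) and 0.42 ± 0.10 for Trp53inp1 (adjusted p = 0.00055, edgeR). Within flow cell B the values were 0.19 and 0.41 and neither was called (adjusted p = 0.19 and 0.064), against 0.80 and 0.43 within flow cell A, both called.

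The other member genes were lower or not called. Ccng1, an early p53 target that encodes cyclin G1, was the one member gene called lower, with 172 to 228 CPM and a median of 195 in WT and 116 to 151 CPM (median 128) in Veh. The groups did not overlap, and the log2 fold change was -0.59 ± 0.09 (adjusted p = 5.4e-06, edgeR), with -0.55 in flow cell A and -0.60 in flow cell B. Cdkn1b (p27) had a group mean of 49.2 ± 2.48 CPM in WT (SD, n = 5) and 54.6 ± 5.88 in Veh (SD, n = 6), a log2 difference of 0.15 with a 95% interval of 0.01 to 0.29 (adjusted p = 0.051, edgeR). Mdm2 had 45.4 ± 2.76 CPM in WT and 48.0 ± 5.31 in Veh, a difference of 0.08 with an interval of -0.09 to 0.25 (adjusted p = 0.39, edgeR). Sesn2, a stress-induced inhibitor of mTORC1 signalling, had 65.4 ± 10.4 CPM in WT and 65.8 ± 6.14 in Veh, a difference of 0.01 with an interval of -0.20 to 0.22 (adjusted p = 0.94, edgeR). The WT and Veh ranges overlapped for these 3 genes. Cdkn1b was at the threshold, and in 11 of 26 alternative settings it was called higher.

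The scaling between libraries bears on these small differences. With library totals in place of TMM factors, the median of all genes moved from 0.07 to 0.65 between Veh and WT, and 81.2% rather than 53.4% of the called genes were higher. On that scale Cdkn1b, Mdm2 and Sesn2 were called higher at 0.74, 0.66 and 0.59, close to the median of all genes, and Ccng1 was at 0.00, below it. Cdkn1a, Cdkn2a, Cdkn2b and Gdf15 were at 3.10, 3.92, 2.73 and 3.01, above the median. In the comparisons of each treatment with Veh, anti-miR-21 first, the medians moved from -0.04 to -0.38 and from -0.05 to -0.32, and 20% and 20.5% of the called genes were higher, against 48.6% and 52.4% with TMM. Upper-quartile scaling gave 41.5% for ACEi and Veh. Against WT, 88.6% of the called genes were higher under anti-miR-21 and 85.6% under ACEi with library totals, in place of 54.6% and 52.7%.

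**Figure D2:**
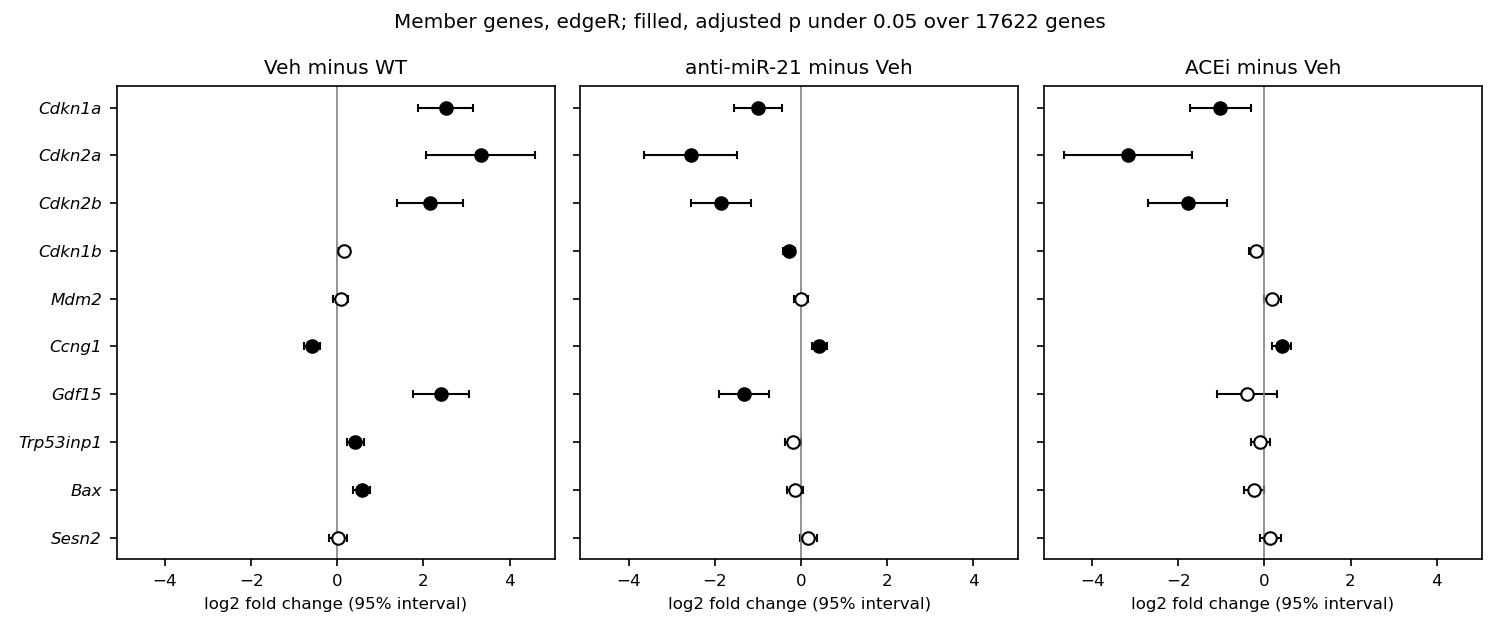
Log2 fold change of each member gene with its 95% interval in 3 comparisons from the fit over all 20 mice, with filled points for an adjusted p under 0.05. Cdkn2a has the longest intervals, from -4.66 to -1.67 between ACEi and Veh, and Cdkn1b, Mdm2, Trp53inp1, Bax and Sesn2 lie between -0.27 and 0.18 in both treatment comparisons.

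The mice that received anti-miR-21 had lower levels of the genes that had risen most in Veh. Picking genes by their rise in the same Veh mice by itself favours a return towards WT, under either treatment. Between anti-miR-21 and Veh, 5 member genes were called lower, namely Cdkn1a, Cdkn2a, Cdkn2b, Cdkn1b and Gdf15, and 1, Ccng1, was called higher. Among all genes tested 30.5% were called lower and 28.8% higher, and the median log2 fold change was -0.22 over the member genes and -0.04 over all genes.

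Cdkn1a fell by 0.99 on the log2 scale (SE 0.27, adjusted p = 0.0035, edgeR), from a mean of 66.0 ± 18.1 CPM in Veh to 33.2 ± 4.01 CPM (SD, n = 6 each), with no overlap between the groups. The difference was -1.27 within flow cell A, where it was called. Within flow cell B, which has only A10 of the anti-miR-21 mice, it was -0.11. Without the 5 libraries of high fat cell markers, a choice made after seeing the data, it was -0.66 and was no longer called (adjusted p = 0.18, edgeR). All 5 are of flow cell A, and the Veh mice left are A19 and, of flow cell B, A16 and A20. Fat cell markers, flow cell and the loss of mice cannot be told apart in that setting.

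Cdkn2a fell by 2.56 (SE 0.52, adjusted p = 0.00026, edgeR), to between 0.111 and 0.436 CPM with a median of 0.256, which overlaps WT and not Veh. This call is a description, since Cdkn2a passed the filter on low counts only through the Veh mice. For Cdkn2b the difference was -1.86 ± 0.34 (adjusted p = 9.6e-05, edgeR), with 2.52 to 4.52 CPM and a median of 3.75 in the treated mice. These also overlapped WT and not Veh. Within flow cell A the differences were -2.80 for Cdkn2a and -2.14 for Cdkn2b, both called. Within flow cell B, which has only A10 of the anti-miR-21 mice, they were -1.87 and -0.95.

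Gdf15 was at 12.9 to 28.8 CPM with a median of 15.9 under anti-miR-21, and only A10, the highest, overlapped the Veh mice. The log2 difference was -1.32 ± 0.28 (adjusted p = 0.00041, edgeR). It was -1.79 within flow cell A. A10, the only anti-miR-21 mouse of flow cell B, lay above both Veh mice there, which had 24.4 and 25 CPM. The difference within flow cell B was 0.22.

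Ccng1 rose to at least 157 CPM (median 174), above every Veh mouse, by 0.43 ± 0.08 on the log2 scale (adjusted p = 0.00023, edgeR), and on library totals it was at 0.09 (adjusted p = 0.38). Cdkn1b fell by 0.27 (SE 0.06, adjusted p = 0.0013, edgeR), to 43.1 to 49.7 CPM, which overlapped the Veh range of 45.9 to 60.8 CPM. This is the gene with the seed-matched stretch shown above, and the part of that stretch in its level was not tested. The members not called were Mdm2 (0.01, 95% interval -0.16 to 0.17), Trp53inp1 (-0.17, -0.36 to 0.01), Bax (-0.13, -0.31 to 0.06) and Sesn2 (0.17, -0.03 to 0.37). On library totals Mdm2 was called lower at -0.33 (adjusted p = 0.0032), close to the median of all genes on that scale.

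The ACEi mice had lower levels of the 3 arrest genes as well, with 3 mice in the group. Between ACEi and Veh, Cdkn1a, Cdkn2a and Cdkn2b, thus 3 of the 10 member genes, were called lower and Ccng1 was called higher. Of all genes tested 19.1% were called lower and 21% higher, and the median was -0.22 over the member genes and -0.05 over all genes.

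Cdkn1a was 2.02 times lower in ACEi than in Veh, a log2 difference of -1.02 ± 0.34 (adjusted p = 0.023, edgeR), and the groups did not overlap. It was -0.99 within flow cell A, which holds 1 ACEi mouse, and -0.57 within flow cell B (adjusted p = 0.34). The call was lost without ACEi mouse A11 (-0.96, adjusted p = 0.081) and without A13 (-0.94, adjusted p = 0.095, edgeR). It was also lost without the libraries of high fat cell markers (-0.73, adjusted p = 0.21, edgeR), which are all of flow cell A.

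Cdkn2a was at 0.0716, 0.204 and 0.230 CPM, and Cdkn2b at 3.33, 3.92 and 4.23 CPM, in the ACEi mice. Every one lay below every Veh mouse and within the WT range. Cdkn2a was kept in the fit only through the Veh mice, so its call here is a description. The log2 differences from Veh were -3.17 ± 0.72 (adjusted p = 0.0017, edgeR) and -1.78 ± 0.44 (adjusted p = 0.0031, edgeR). Within flow cell A, which holds 1 ACEi mouse, they were -3.12 and -1.96. Within flow cell B, with 2 ACEi and 2 Veh mice, they were -2.71 and -1.21, neither called. Cdkn2b was at -1.42 without the libraries of high fat cell markers (adjusted p = 0.056, edgeR), which are all of flow cell A. Ccng1, at 169, 171 and 179 CPM, was higher than in every Veh mouse, by 0.40 ± 0.10 (adjusted p = 0.0044, edgeR). Its difference was 0.39 within flow cell A, 0.38 and not called within flow cell B, and 0.13 on library totals (adjusted p = 0.33, edgeR).

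Gdf15 was not called in this group, and whether its difference departs from those of the arrest genes was not tested. It was at 24.3, 34.7 and 40.7 CPM, within the Veh range apart from A23, the lowest, and the log2 difference from Veh was -0.40 with a 95% interval of -1.10 to 0.30 (adjusted p = 0.36, edgeR). The flow cells gave opposite signs. In flow cell A the only ACEi mouse, A23, lay below all 4 Veh mice (-1.12). In flow cell B both ACEi mice lay above both Veh mice (0.61, adjusted p = 0.032, edgeR). The remaining member genes were not called, with differences between -0.25 for Bax (95% interval -0.48 to -0.02) and 0.18 for Mdm2 (-0.01 to 0.38). Cdkn1b was at -0.20 (-0.36 to -0.03, adjusted p = 0.056, edgeR) and was called lower in 11 of 24 alternative settings, DESeq2 among them (adjusted p = 0.035), and Bax in 6 of 24.

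**Figure D3:**
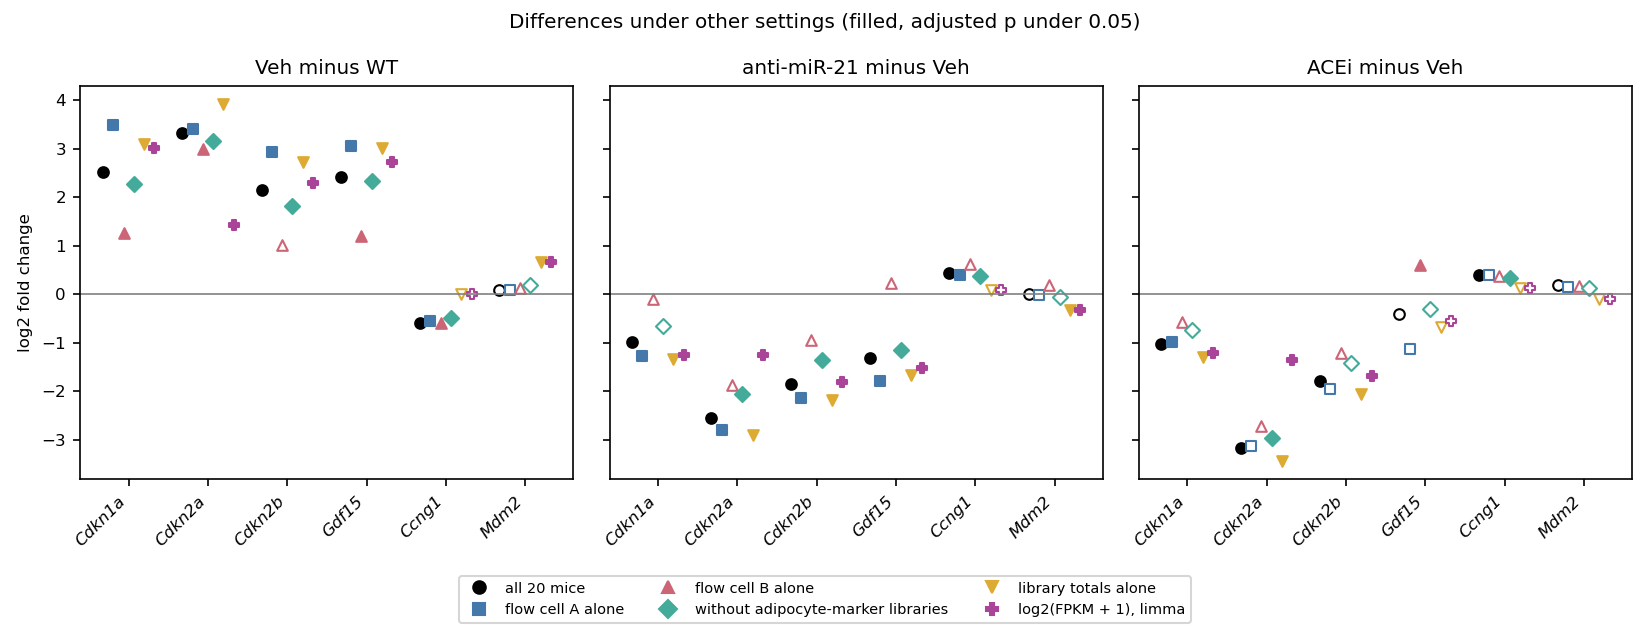
Log2 fold changes of 6 member genes in 3 comparisons from all 20 mice, from each flow cell alone, without 5 libraries of high fat cell markers, with library totals alone, and from limma on log2(FPKM + 1), with filled symbols for an adjusted p under 0.05. Gdf15 crosses 0 in flow cell B in both treatment comparisons, at 0.22 and 0.61, while the rises of Cdkn1a, Cdkn2a and Gdf15 between Veh and WT stay above 1 in each setting.

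The treatments were also compared with each other. Between anti-miR-21 and ACEi, 0 of the 10 member genes were called by edgeR or by DESeq2, and 0.363% of all genes were called higher and 0.221% lower. The only member gene with an unadjusted edgeR p under the threshold was Gdf15, at a log2 difference of -0.92 with a 95% interval of -1.60 to -0.23 (adjusted p = 0.20, edgeR). The difference was -0.66 within flow cell A and -0.39 within flow cell B. For Cdkn1a it was 0.02 (-0.66 to 0.71), for Cdkn2b -0.07 (-0.94 to 0.80) and for Cdkn2a 0.60 (-0.93 to 2.14), intervals that leave room for sizeable differences in either direction. Those of the less variable genes were narrower, with -0.18 (-0.37 to 0.02) for Mdm2 and 0.03 (-0.19 to 0.25) for Ccng1.

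What was left of the difference from WT under treatment differed by gene. Between anti-miR-21 and WT 4 member genes were called higher, where 23.9% of all genes were, and 0 lower, where 19.8% were. Between ACEi and WT 5 were called higher, where 25.2% of all genes were, and 0 lower, where 22.5% were. Cdkn1a was still 2.89-fold above WT under anti-miR-21 (log2 1.53 ± 0.30, adjusted p = 0.00043, edgeR) and 2.84-fold under ACEi (1.51 ± 0.34, adjusted p = 0.0013, edgeR). Gdf15 was 2.14-fold above WT under anti-miR-21 (1.10 ± 0.31, adjusted p = 0.0073, edgeR) and 4.03-fold under ACEi (2.01 ± 0.35, adjusted p = 0.00011, edgeR). In both genes every treated mouse lay above every WT mouse. Within flow cell A the Cdkn1a differences were 2.22 under anti-miR-21 and 2.5 under ACEi, and within flow cell B 1.16 and 0.71. Those of Gdf15 were 1.27 and 1.93 within flow cell A and 1.41 and 1.80 within flow cell B. Flow cell A holds 1 ACEi mouse and flow cell B 1 anti-miR-21 mouse, so calls are given only for the other fits. In these, Gdf15 was called under anti-miR-21 in flow cell A and under ACEi in flow cell B. Cdkn1a was called in the former and not in the latter (adjusted p = 0.19, edgeR).

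Bax was above WT by 0.44 under anti-miR-21 and by 0.32 under ACEi, and Trp53inp1 by 0.24 and 0.33. The call of Trp53inp1 under anti-miR-21 was close to the threshold (adjusted p = 0.045, edgeR), and it was lost in 15 of 26 alternative settings, DESeq2 among them (adjusted p = 0.062). The calls of Bax and Trp53inp1 under ACEi were each lost without 1 of 3 single mice, A6, A13 or A23 for Bax and A3, A18 or A11 for Trp53inp1. Mdm2 was called higher only between ACEi and WT, by 0.26 ± 0.10 (adjusted p = 0.031, edgeR), with 52.0, 52.7 and 58.8 CPM against 42.4 to 48.2 CPM in WT. That call was lost without ACEi mouse A11, WT mouse A14 or WT mouse A17, and within flow cell B alone (0.29, adjusted p = 0.11, edgeR). Within flow cell A, which holds 1 ACEi mouse, the difference was 0.23. Cdkn2a was not distinguishable from WT under anti-miR-21 (0.77, 95% interval -0.60 to 2.14) or ACEi (0.16, -1.53 to 1.85), nor was Cdkn2b (0.30, -0.47 to 1.07, and 0.37, -0.54 to 1.28). Without WT mouse A14, which holds 12 of the Cdkn2a counts of its group, Cdkn2a was called higher under anti-miR-21, at 1.98 (adjusted p = 0.028).

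**Figure D4:**
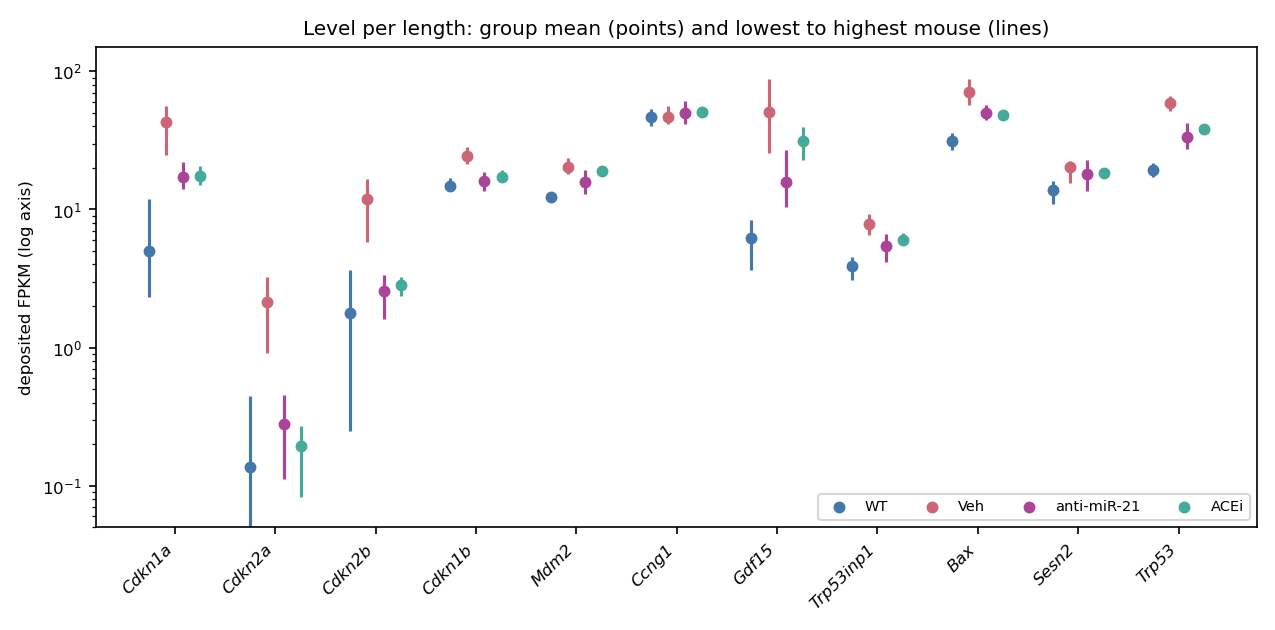
Deposited FPKM of the member genes and of Trp53 on a log axis, with points for group means and lines from the lowest to the highest mouse, where the WT line of Cdkn2a runs to 0, off the axis. Cdkn2a is the lowest member gene in every group, with a mean of 0.137 in WT and 2.15 in Veh.

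Levels were compared between genes per length, as FPKM on the authors' own gene models, which are scaled by library total. In WT kidneys Ccng1 was the highest member gene at 46.5 ± 4.93 FPKM (SD, n = 5), followed by Bax at 31.1 ± 4.22, and neither range overlapped that of any other member gene. Cdkn1b, Sesn2 and Mdm2 followed at 14.9 ± 1.18, 13.8 ± 2.52 and 12.4 ± 0.638 FPKM, where the range of Sesn2 overlapped both others and those of Cdkn1b and Mdm2 did not overlap. Below them came Gdf15 at 6.24 ± 2.04, Cdkn1a at 5.02 ± 3.91, Trp53inp1 at 3.87 ± 0.677, Cdkn2b at 1.77 ± 1.27 and Cdkn2a at 0.137 ± 0.185 FPKM. Each of these overlapped its neighbour in this order, and Cdkn1a, through mouse A17, reached the ranges of Mdm2 and Sesn2.

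In Veh kidneys the order had changed. Bax was highest at 70.6 ± 12.4 FPKM (SD, n = 6), and Gdf15 at 50.6 ± 25.4, Ccng1 at 46.9 ± 5.32 and Cdkn1a at 43.3 ± 12.8 FPKM followed with ranges that overlapped one another. The range of Bax overlapped that of Gdf15 and not those of Ccng1 or Cdkn1a. By their means Cdkn1a and Gdf15 thus passed Cdkn1b (24.5 ± 2.89), Mdm2 (20.3 ± 2.05) and Sesn2 (20.3 ± 2.75), while their ranges overlapped that of Cdkn1b. Cdkn2b at 11.9 ± 3.80 and Trp53inp1 at 7.79 ± 0.983 FPKM overlapped each other, and Cdkn2a stayed lowest at 2.15 ± 0.916 FPKM, below every Veh mouse of Cdkn2b. The authors marked the FPKM entries of Trp53inp1 and Sesn2 as shared with other genes.

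The genes whose pattern over the 20 mice was most like that of Cdkn1a were Nupr1, Hspb1 and Sphk1, with root mean square differences of 0.278, 0.320 and 0.332 in centred log2 CPM, among 12570 protein-coding genes. Nupr1, a stress-induced chromatin protein, had medians of 9.10 CPM in WT, 90.3 in Veh, 43.3 under anti-miR-21 and 43.1 under ACEi. Those most like Gdf15 were Myc, Ccn1 and Jun, at 0.315, 0.370 and 0.389. Ccn1, a secreted matrix protein, had medians of 27.1 CPM in WT, 141 in Veh, 74.3 under anti-miR-21 and 161 under ACEi. These are descriptions over mice that differ by group, and genes that differ between the same groups resemble one another for that reason alone.

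Among p53 and its regulators Trp53 itself, the gene of p53, rose to 89.1 ± 5.96 CPM in Veh from 44.4 ± 3.55 in WT, a log2 fold change of 1.0 ± 0.08 (adjusted p = 3.4e-10, edgeR). It was lower than in Veh under anti-miR-21 (-0.47 ± 0.07, adjusted p = 1.2e-05, edgeR) and under ACEi (-0.33 ± 0.09, adjusted p = 0.005, edgeR), with no overlap between Veh and any other group. Mdm4, a relative of Mdm2 that holds p53 inactive, rose by 0.42 ± 0.07 in Veh (adjusted p = 1.1e-05, edgeR). It was called lower under ACEi (-0.21) and missed the threshold under anti-miR-21 (-0.15, adjusted p = 0.054, edgeR). Of the 12 genes of this list that passed the filter, out of 13, 6 were called higher and 3 lower in Veh, near the shares of all genes (39% and 34%). Chek1, a kinase of the DNA damage checkpoint, rose by 2.06 and the p53 relative Trp63 by 1.17, while the deubiquitinase Usp7 and the ubiquitin ligase Rchy1, both of which act on p53, fell by 0.36 and 0.30 on the log2 scale.

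Other targets of p53 moved in both directions. Of 22 genes of arrest, repair and survival, 14 were called higher and 6 lower in Veh, where 39% and 34% of all genes were. Their median log2 fold change was 0.58 against 0.07 over all genes. Psrc1, a spindle protein, rose by 3.84 and Sfn, the cell cycle inhibitor 14-3-3σ, by 3.34, from a median of 5.57 CPM in WT to 65.6 in Veh. Dcxr, an enzyme of carbonyl and sugar metabolism that is abundant in proximal tubules, fell by 2.12 and Rrm2b, a ribonucleotide reductase subunit induced by p53, by 0.96. Of 10 targets linked to cell death 7 were higher and 1 lower, beside the same shares of all genes. Eda2r, a receptor of the TNF receptor family, rose by 3.43 and Bbc3, the apoptosis activator PUMA, by 2.41, and the membrane protein gene Perp fell by 0.74.

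Under anti-miR-21, 13 of the 22 arrest, repair and survival genes and 6 of the 10 cell death genes were called lower than in Veh, and 5 and 1 were called higher, where 30.5% of all genes were lower and 28.8% higher. Under ACEi 7 and 4 were lower and 3 and 1 higher, where 19.1% and 21% of all genes were. Sfn was at -2.0 ± 0.19 under anti-miR-21 and -1.51 ± 0.24 under ACEi, and Bbc3 at -1.06 ± 0.14 and -1.10 ± 0.17, each without overlap with Veh. Dcxr went the other way, with 1.54 ± 0.15 and 1.27 ± 0.18. Sfn, Bbc3 and Dcxr were named for their large differences between the same Veh mice and WT, which by itself favours a return towards WT. None of the 32 arrest, repair, survival and cell death genes was called between the treatments, where 0.363% of all genes were called higher and 0.221% lower.

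**Figure D5:**
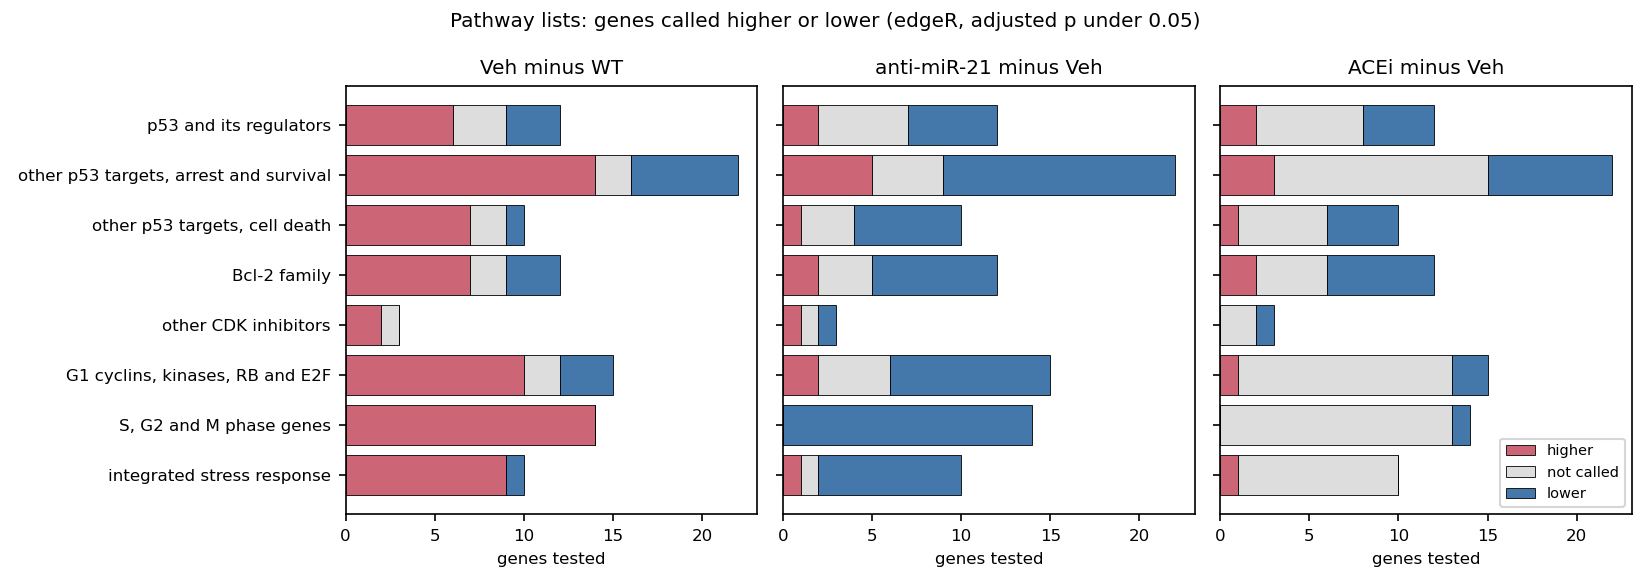
Number of genes of each pathway list called higher, called lower or not called in 3 comparisons, out of the genes tested, with edgeR at an adjusted p under 0.05. The 14 S, G2 and M phase genes all rose from WT to Veh, all were lower with anti-miR-21 than in Veh, and 1 was lower with ACEi. Of all genes tested 39% were called higher in Veh than in WT, 30.5% lower with anti-miR-21 and 19.1% lower with ACEi.

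Of the 12 Bcl-2 family genes tested, which set the threshold for apoptosis, 7 were higher and 3 lower in Veh. Among all genes 39% were called higher and 34% lower. Bcl2a1b rose by 6.35, but it has near-identical copies among which reads may be split, and Bmf, a trigger of apoptosis, rose by 2.24. Bid, which links death receptors to mitochondria, fell by 1.10 and the survival gene Bcl2l2 by 0.58. Of 3 other CDK inhibitors Cdkn1c (p57), by 0.91, and Cdkn2d, by 0.75, were higher in Veh. Cdkn1c was the one CDK inhibitor called higher under anti-miR-21 than in Veh, by 0.37 ± 0.09 (adjusted p = 0.0019, edgeR), at a median of 37.0 CPM against 28.3, although the mean FPKM, scaled by library total, was 21.1 against 20.8. Podocytes express Cdkn1c, and summed podocyte markers had medians of 374 CPM in Veh and 448 CPM under anti-miR-21. Of the 5 podocyte markers 3 were called higher under anti-miR-21 than in Veh, 1 lower and 1 was not called. In that comparison 28.8% of all genes were called higher and 30.5% lower. Under ACEi the medians were 35.7 CPM for Cdkn1c and 423 CPM for the summed podocyte markers. The part of podocytes in the level of Cdkn1c was not tested.

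The rise of the arrest genes went together with higher levels of genes that dividing cells use. Of 15 G1 cyclins, kinases, RB and E2F genes 10 were higher in Veh and 3 lower, where 39% and 34% of all genes were. Ccne1, the cyclin that starts S phase, rose by 2.49 and the transcription factor E2f1 by 1.79, and Rbl2, which represses E2F targets in resting cells, fell by 0.76 and Ccnd3 by 0.47. All 14 genes of the S, G2 and M phases were higher in Veh, led by the mitotic kinase Aurkb (3.78) and the topoisomerase Top2a (3.65). All 14 were lower under anti-miR-21 than in Veh, where 30.5% of all genes were. Under ACEi 1, Aurkb, was lower, where 19.1% of all genes were, with 3 mice in that group against 6 under anti-miR-21. Among all genes 0.221% were called lower under anti-miR-21 than under ACEi. Between the treatments 2 of the 14, Mcm2 (-0.43, adjusted p = 0.042, edgeR) and Rrm2 (-0.75, adjusted p = 0.037, edgeR), were called lower under anti-miR-21, which were chosen for naming after their values were seen. Whether the same cells carried the arrest and the division genes cannot be told from whole kidneys.

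The integrated stress response, which is a p53-independent way to induce Gdf15 and Sesn2, had 9 of 10 genes higher and 1 lower in Veh. Atf3, a stress-induced transcription factor, rose by 4.55 and the cystine transporter Slc7a11 by 2.92, and Vldlr fell by 0.87. Under anti-miR-21 8 of the 10 were lower than in Veh and 1 was higher. Under ACEi, with 3 mice against 6 under anti-miR-21, 0 were called lower and 1, Vldlr, was called higher. Between the treatments 0 of the 10 were called. Atf3 was at 19.9, 22.5 and 27.7 CPM in the ACEi mice against a median of 19.8 in Veh, so that it, like Gdf15, overlapped Veh there. The part of this response in the levels of Gdf15 and Sesn2 was not tested. Over all 98 pathway genes tested, 69 were higher and 17 lower in Veh, where 39% and 34% of all genes were. Against the same Veh mice anti-miR-21 had 14 higher and 63 lower, where 28.8% and 30.5% of all genes were, and ACEi had 10 higher and 25 lower, where 21% and 19.1% were. Directly compared, 0 of the 98 were called higher under anti-miR-21 than under ACEi and 2 lower, where 0.363% and 0.221% of all genes were.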

How the data were processed

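Total RNA of 20 kidneys was sequenced as paired reads, which the authors processed in OmicSoft Studio, with OSA4 as the aligner and GRCm38 as the genome. The deposited estimated counts per Ensembl gene are not normalized, and 29.1% of the values above 0 are not whole. The authors also deposited FPKM on another gene model (33368 entries), a table of gene lengths and positions, and a library table with the count of alignments per library (70004591 to 73294858). Whether counting used the strand is not given in the sources used here. Columns of 3 further libraries matched no sample and were not used.

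Counts were rounded and scaled with TMM factors, which were 0.771 to 0.85 in WT and 1.123 to 1.264 in Veh. Genes were kept by filterByExpr (at least 10 counts, 15 in total), and the 4 groups were fitted together with edgeR 4.0.16 (R 4.3.3) using the quasi-likelihood test, with p-values adjusted over all 17622 genes by Benjamini-Hochberg. The fit was tested on simulated data. Limma 3.58.1 on log2(FPKM + 1) and DESeq2 1.42.0 served as alternatives, beside other scalings, filters, pseudocounts, fits without each single mouse, within a flow cell, with flow cell as a term, or of the compared groups alone. The flow cell was read from the library names. Leaving out the 5 libraries with over 15 CPM of summed fat cell markers, or WT A17, Veh A16 and anti-miR-21 A10 together, was added after seeing the data. None of 43 pairs of mice within groups had identical values, and the smallest chi-square per degree of freedom was 15.43. Tables and figures were made with Python 3.11.15, pandas 2.3.3, numpy 2.4.6 and matplotlib 3.10.9.

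The member genes and the pathway and marker lists were chosen with earlier results of these data known. All member genes, Trp53, Mdm4 and Col4a3 were named, as were up to 2 genes with the largest rise and 2 with the largest fall among those called between Veh and WT in each pathway list, and the 3 genes most like Cdkn1a and Gdf15. Likeness was the root mean square difference of log2 CPM after centring each gene. The p53 half-site was searched on both strands as purine and pyrimidine triplets around the central C, 2 weak bases and G.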

Additional observations from a re-analysis of the deposited data

Results flagged for a closer look

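In each group of 4 to 10 mice, a mouse was singled out where its gap to the next mouse was larger than Dixon's 95% limit allows. Over 39 genes 117 groups were examined, of which chance alone would mark about 5%, and 10 were marked. Of the member genes, Cdkn1a was at 26.4 CPM in WT mouse A17, where the next mouse had 10.3, and at 40.9 CPM in anti-miR-21 mouse A10, where the next had 33.5. Gdf15 was at 28.8 CPM in the same mouse A10 against 16.9 in the next, and Cdkn1b at 49.7 CPM in anti-miR-21 mouse A2 against 45.3. A10 is the only anti-miR-21 mouse of flow cell B.

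Among the other genes, Trp63 was at 1.68 CPM in WT mouse A17 and at 3.07 CPM in Veh mouse A1. Veh mouse A16, which had the lowest Cdkn1a, Cdkn2a, Cdkn2b and Gdf15 of its group, was highest for Bid at 54.0 CPM, E2f1 at 12.6 CPM and Top2a at 31.7 CPM. Atf3 was at 61.2 CPM in Veh mouse A19, the mouse with the highest Gdf15, against 22.9 CPM in the next mouse. The cause of these values was not tested.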

How the results depend on the processing

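Of 1485 alternative values for the 60 differences of member genes, 1345 kept their side of the threshold without a called value turning, 61 lost a call, 69 gained one and 10 turned. Values that were not called changed sign in 83 cases. Ccng1 between Veh and WT was 0.01 with limma on log2(FPKM + 1), on log2(FPKM + 0.1) and with a mean FPKM of at least 1. Mdm2 between anti-miR-21 and Veh was called lower with library totals (-0.33) and in those 3 FPKM fits (-0.33, -0.35 and -0.33), and Cdkn1b between ACEi and WT was called higher with library totals (0.27), where the scaling itself moves the median of all genes. Gdf15 in flow cell B was higher than in Veh, by 0.22 under anti-miR-21 and by 0.61 under ACEi. Within flow cell B, which has 2 ACEi mice, 4 member genes were called between Veh and WT (7 in all mice). There 8970 of all 17903 genes tested were called, against 12867 of 17622 in all mice. Between ACEi and Veh 1 member gene was called (4 in all mice), where 1316 of all genes were (7074 in all mice). Between ACEi and WT 1 member gene was called (5 in all mice), where 4999 of all genes were (8405 in all mice). Calls are not counted for comparisons with the 1 anti-miR-21 mouse of flow cell B or the 1 ACEi mouse of flow cell A. With 1 mouse left out the numbers were 7 to 8 between Veh and WT, 6 to 7 between anti-miR-21 and Veh, 3 to 5 between ACEi and Veh, 0 to 0 between anti-miR-21 and ACEi, 3 to 5 between anti-miR-21 and WT and 3 to 4 between ACEi and WT. A lone mouse was assumed to vary like the other groups. The cause of these changes was not tested. No paired analysis was possible because each replicate name belongs to a single mouse and the groups share none.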
